A study of Mus musculus with 160 samples.

Results

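Keratins are the proteins of the intermediate filaments of epithelial cells. Each filament is built from pairs of a type I and a type II keratin, and the pair a cell makes follows its kind of epithelium. Krt8 with Krt18, Krt19 and Krt20 forms the filaments of the one-layered lining of the gut, whereas Krt5 with Krt14 marks the basal layer of stratified epithelium, Krt1 with Krt10 the cornifying layers of skin, and Krt4 with Krt13 the upper layers of moist stratified linings such as oesophagus and anal canal. Krt6a, Krt6b, Krt16 and Krt17 are known for their rise in wounded skin, and a large set of further keratins builds the hair shaft and its root sheath. Colon epithelium meets stratified epithelium at the anal margin. The keratins described here were the genes of the count files named Krt followed by digits and at most 1 letter, protein coding, with at least 10 counts summed over all 160 samples. They numbered 53 of the 39179 genes listed. The minimum of 10 counts removed none: the members nearest to it were Krt88 with 83 counts and Krt9 and Krt40 with 144 each, and the 1 further symbol, Krt74, was left out as a pseudogene. By the roles given above, 6 were simple-epithelial, 15 squamous (3 basal, 4 epidermal suprabasal, 4 mucosal suprabasal and 4 wound-induced), 24 of the hair follicle and 8 of other kinds. The 27 genes of chromosome 11 lie between 99232761 and 100269871 and the 26 of chromosome 15 between 101347444 and 102032027 (GRCm38, the assembly of mm10).

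RNA came from the distal colon of mice with a homozygous knockout of Nckap1l (labelled HEM1), Dock2, Gpsm3 or Dok3, 4 genes of immune cells, and of wild-type mice of the same lines. The Nckap1l line had 16 knockout (4 female) and 15 wild-type samples (8 female), the Dock2 line 18 (8 female) and 24 (12 female), and the Gpsm3 line 20 and 20 and the Dok3 line 26 and 21, all labelled male. The strain was C57BL6/J except in the Dok3 line, labelled 129. Dextran sulphate sodium (DSS), which injures the colonic lining, was given in the water for 5 days, at 3% in the Dock2 and Gpsm3 lines and 3.5% in the Dok3 line, with no dose on the labels of the Nckap1l line, and tissue was taken on day 10, or day 12 in the Nckap1l line. Every library came from total RNA of the last stretch of colon, so that lining, muscle, immune cells and any adjoining skin were sequenced together. The labels do not give which mice received DSS, so treated and untreated mice were compared together. Groups are as labelled: the targeted gene had a median of 14.8 CPM (knockout) and 27.2 CPM (wild type) for Nckap1l, 22.5 and 34.2 CPM for Dock2, 0.572 and 3.21 CPM for Gpsm3, and 3.16 and 3.63 CPM for Dok3, and only Gpsm3 passed the test (adjusted p = 0.0001 in edgeR's quasi-likelihood test). Counts per gene do not show which exon a knockout removes, so the other 3 lines have no check of their labels here. In 5 libraries of the Dok3 line labelled male the sex-specific genes went against the label. Total counts ranged from 4344988 to 19993833 per library (median 15989625), and 3 counts, taken as the least amount detected, stood for 0.15 to 0.69 CPM (counts relative to the library total, scaled by the trimmed mean of M-values, TMM).

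The stretch upstream of 6 keratins is printed to show the start regions of genes that the results below turn on: Krt8 and Krt20 of the gut lining, Krt5 of basal cells, Krt13 of moist stratified lining, and Krt36 and Krt84, named for hair but measured in the colon. Each run is the 150 bases before the start of transcription in RefSeq (GRCm38.p6), written 5′ to 3′ along the gene, and capitals mark ATAAA, the core of a TATA box, where it began 40 to 20 bases before the start.

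Krt8, chr15:102004343-102004492, strand -: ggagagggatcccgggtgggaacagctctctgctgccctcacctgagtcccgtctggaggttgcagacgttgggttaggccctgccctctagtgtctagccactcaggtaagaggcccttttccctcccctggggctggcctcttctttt
Krt20, chr11:99438154-99438303, strand -: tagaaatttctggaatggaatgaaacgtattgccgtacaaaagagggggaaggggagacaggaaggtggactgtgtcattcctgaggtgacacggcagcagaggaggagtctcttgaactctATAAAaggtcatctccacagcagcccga
Krt5, chr15:101712906-101713055, strand -: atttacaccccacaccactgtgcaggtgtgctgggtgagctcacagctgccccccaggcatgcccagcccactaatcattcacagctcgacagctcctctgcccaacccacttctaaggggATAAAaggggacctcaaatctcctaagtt
Krt13, chr11:100121567-100121716, strand -: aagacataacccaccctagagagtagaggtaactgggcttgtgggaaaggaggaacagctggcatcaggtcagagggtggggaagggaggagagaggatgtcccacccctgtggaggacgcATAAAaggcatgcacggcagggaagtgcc
Krt36, chr11:100105627-100105776, strand -: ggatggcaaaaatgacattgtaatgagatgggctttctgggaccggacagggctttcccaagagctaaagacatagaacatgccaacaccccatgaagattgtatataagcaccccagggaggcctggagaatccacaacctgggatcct
Krt84, chr15:101532821-101532970, strand -: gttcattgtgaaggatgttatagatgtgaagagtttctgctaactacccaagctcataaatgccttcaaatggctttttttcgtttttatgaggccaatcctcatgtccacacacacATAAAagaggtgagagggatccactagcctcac

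RefSeq gave a start region for 36 of the 53 keratins. On the coding strand, ATAAA began 40 to 20 bases before the start in 20 of these 36 (55.6%), as against 4.2% of all 32851 start regions. The longer TATAAA, on either strand anywhere in the 250 bases before the start, stood in 17 of 36 (47.2%) and in 12.4% of all, and overlaps ATAAA. The AP-1 motif TGANTCA, on either strand of the same 250 bases, stood in 1 of the 36 keratins, Krt13, and in 6.7% of all. Krt13 has 2 start regions in RefSeq and both held the AP-1 motif, but the one not shown had no ATAAA in that place. Of the 6 stretches shown, those of Krt20, Krt5, Krt13 and Krt84 held ATAAA in that place and those of Krt8 and Krt36 did not. The Krt8 stretch lies mostly inside the Krt8 gene of the GENCODE annotation, which begins at 102004482 on this strand. Its lack of ATAAA thus holds for the RefSeq start only. Such matches of letters describe the sequence and do not show that a factor binds there.

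The simple keratins were measured in every sample. Krt8, the type II partner in most gut filaments, ranged from 520 to 3809 CPM over the 160 samples with a median of 2434 CPM. Krt19, the smallest type I keratin, had a median of 1872 CPM (606 to 3488 CPM). Krt20, which marks the differentiated cells near the surface of the crypts, had a median of 457 CPM (75.8 to 1118 CPM). Krt18, the classical partner of Krt8, had a median of 277 CPM (86.9 to 806 CPM), Krt7, a keratin of ducts and bladder, 108 CPM (44.1 to 353 CPM), and Krt23 5.13 CPM (0.857 to 46.8 CPM). Per kilobase of exon the order of the medians was Krt8 with 1243, Krt19 with 1009, Krt20 with 237, Krt18 with 193, Krt7 with 15.3 and Krt23 with 3.28 CPM per kb. On this scale the ranges of neighbours in the order overlapped over the 160 samples, except that every value of Krt18 was above every value of Krt7, and the order was not tested. Together the 6 genes made up 0.146% to 0.871% of all counts. Reads of Krt8 can be shared with the pseudogene Krt8-ps, since 16.9% of the stretches of 100 bases in its transcript occur elsewhere among transcripts, and Krt8, Krt7 and Krt10 overlap antisense or other opposite-strand genes; whether counting used the strand is not given in the sources used here. In bulk RNA, fewer epithelial cells and less keratin RNA per cell cannot be told apart.

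Squamous keratins were spread unevenly. Krt5 lay between 0 and 9.48 CPM in 128 samples and between 211 and 2344 CPM in the other 32, with no value in the 22.2-fold gap between. A minimum of 10 CPM falls in this gap and divides the samples by a measured value, not by a group of the study, so the ranges on both sides are given as a description with no test. By group, Krt5 was at 10 CPM or more in 8 of 15 wild-type and 7 of 16 knockout samples of the Nckap1l line, 4 of 24 and 1 of 18 of the Dock2 line, 1 of 20 and 2 of 20 of the Gpsm3 line, and 5 of 21 and 4 of 26 of the Dok3 line. Every line and genotype thus held samples on both sides. Sample numbers in the titles fall into runs separated by gaps of more than 20. In the first of the 3 runs of the Nckap1l line 13 of 14 samples were above the gap, against 1 of 9 and 1 of 8 in the others. In that line 9 of 12 females and 6 of 19 males were above it, and 9 of the 12 females belonged to the first run. Within the first run 5 of 5 males and 8 of 9 females were above it, within the second 1 of 9 males, and within the third 0 of 5 males and 1 of 3 females. The Dock2 line, a single run, had 2 of 20 females and 3 of 22 males above it.

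**Figure D1:**
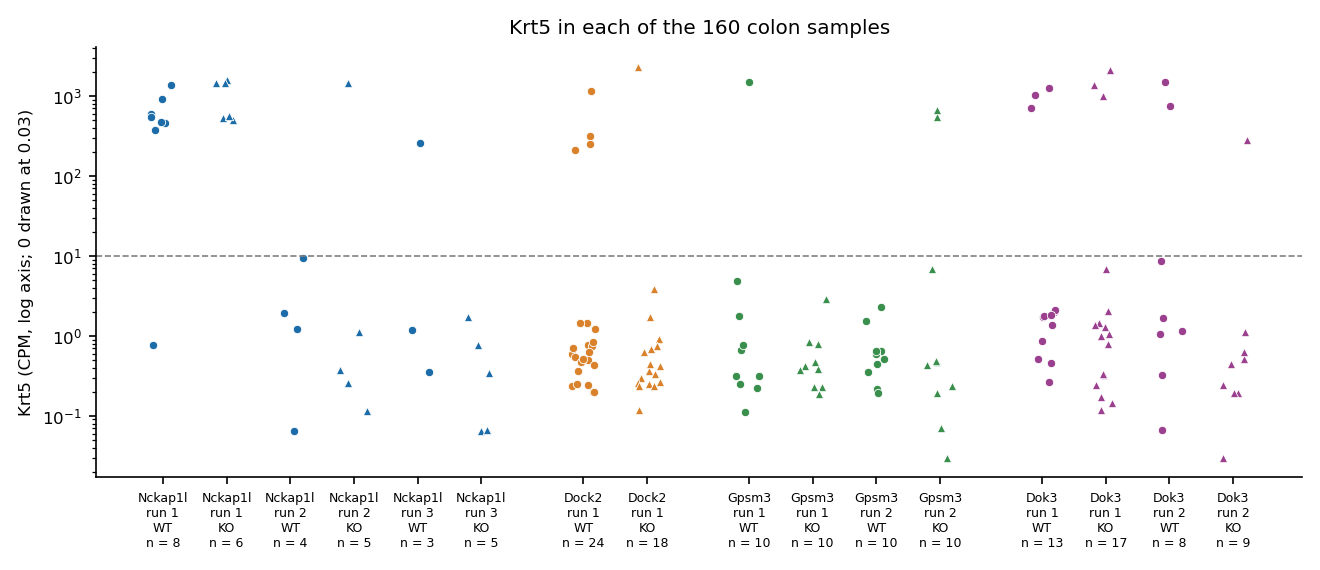
Krt5 in each sample (CPM, log axis) by line, run of sample numbers and genotype (circles, wild type, WT; triangles, knockout, KO); the dashed line marks 10 CPM. The 32 samples above it lie between 211 and 2344 CPM and the other 128 at 9.48 CPM or less, and 13 of the 14 samples of the first Nckap1l run are above.

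In the 5 samples of the Dock2 line above the gap, Krt5 was at 317, 250, 211 and 1164 CPM in wild type and 2344 CPM in the knockout, the highest value of the series. In the Gpsm3 line it was at 1507 CPM in 1 wild-type sample and at 542 and 671 CPM in 2 knockouts. The same 32 samples held the other keratins of stratified epithelium. Krt14, the basal partner of Krt5, ranged from 184 to 4945 CPM in them and from 0.401 to 29.9 CPM in the other 128. Krt1 of the cornifying layers ranged from 147 to 4903 CPM as against 0 to 16.2 CPM, and its partner Krt10 from 99.9 to 4248 CPM as against 1.27 to 16.7 CPM. Krt4 of moist lining ranged from 168 to 764 CPM as against 0 to 2.09 CPM. Krt13, its partner, ranged from 160 to 2328 CPM as against 0.0585 to 74.7 CPM, and Krt6a of wounds from 91.2 to 3629 CPM as against 0 to 20.4 CPM. Krt17 ranged from 30.0 to 382 CPM as against 0.178 to 6.96 CPM, and Krt15, of resting basal and bulge cells, from 33.3 to 507 CPM as against 0.167 to 8.07 CPM. In all, the 2 ranges lay apart for 14 of the 53 keratins, among them Krt5, which set the split. These were 12 of the 15 squamous, Krt75 of the hair follicle and Krt80. The share of all genes with ranges apart was not computed, so the 14 have no background beside them. Krt6a and Krt6b share 29.1% and 30.6% of their stretches of 100 bases with each other and a few further transcripts, so their counts are uncertain relative to each other.

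**Figure D2:**
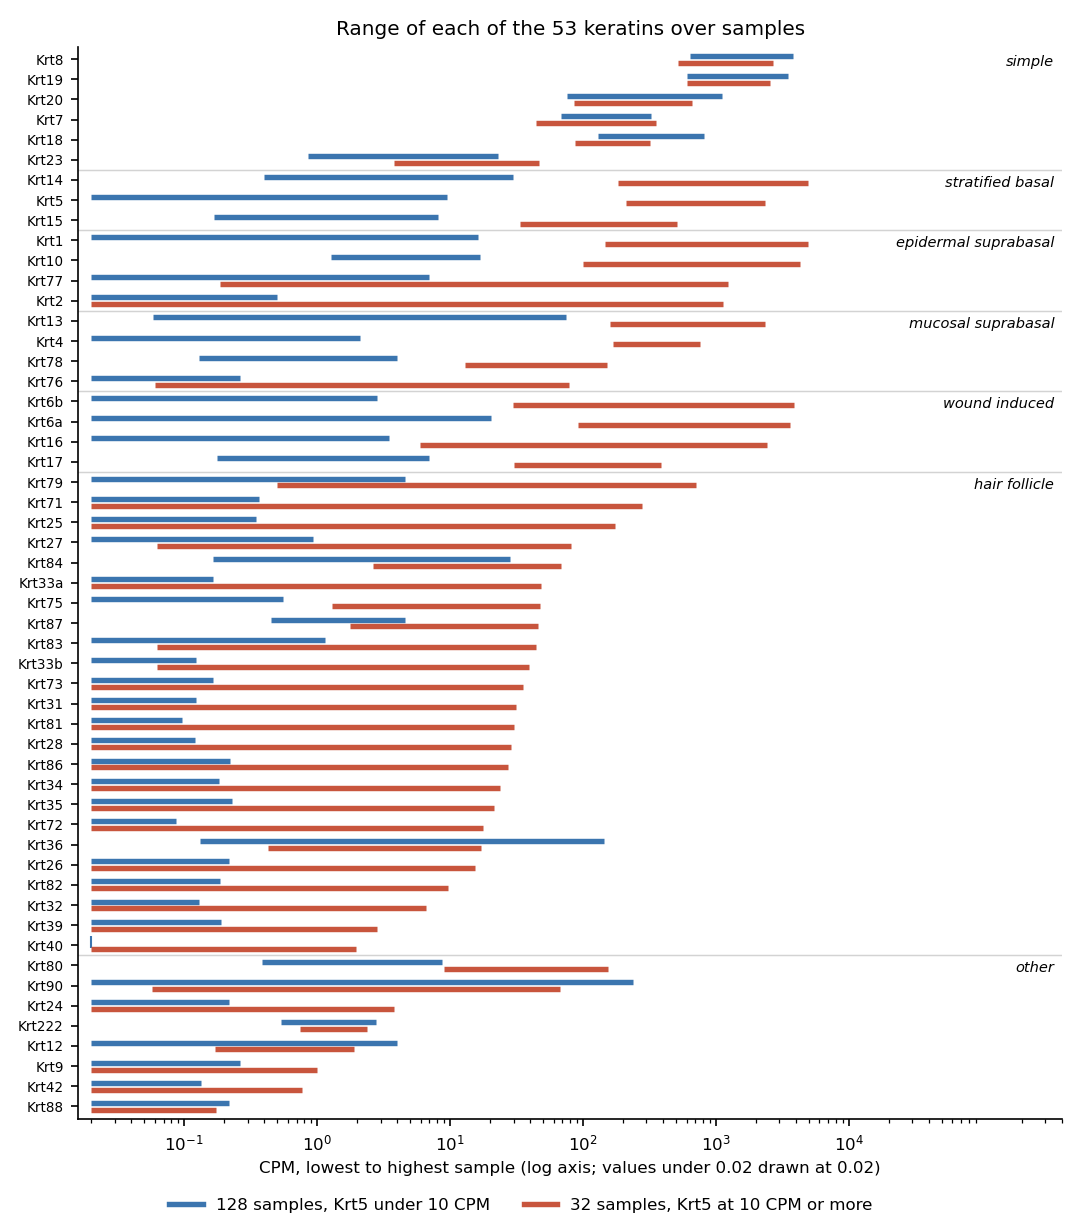
Range of each of the 53 keratins from the lowest to the highest sample (CPM, log axis), grouped by role, in the 128 samples with Krt5 under 10 CPM (blue) and the 32 with Krt5 at 10 CPM or more (red). The ranges of the 6 simple keratins overlap, and those of 12 of the 15 squamous keratins lie apart, among them Krt5, which set the split. The share of all genes with ranges apart was not computed.

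The simple keratins made up 91.9% to 99.8% of all keratin counts in the 128 samples and 12.8% to 75.2% in the 32, where the 15 squamous genes made up 23.9% to 85.2%. The latter share was 0.116% to 1.74% in the 128. Within the 32 samples the kinds of squamous keratin did not keep 1 ratio. The CPM of Krt14 stood to that of Krt5 at 0.621 to 2.11, whereas Krt1 to Krt4 ranged from 0.624 to 11.2 and Krt10 to Krt13 from 0.228 to 9.19. Markers of other tissues also differed in range between the 2 sides of the gap. The summed level of 14 genes of striated muscle, the tissue of the anal sphincter, ranged from 179 to 49400 CPM in the 32 samples and from 31 to 1106 CPM in the 128. Trp63, the basal cell factor, was at 30.9 to 235 CPM and at 0 to 4.40 CPM, and the summed level of 15 colonocyte genes at 1820 to 11170 CPM and at 3150 to 25630 CPM. No muscle or colonocyte list was at 0 in any sample. Krt5 with Acta1, the actin of striated muscle, had r of 0.243 and 0.248 in the 2 clusters above the gap and passed in neither (adjusted permutation p of at least 0.442, exact in the Dok3 line), and below it r was 0.277 to 0.566 in the 4 lines and passed in 2. No r was computed over both sides. The split on Krt5 narrows its range on each side, and below the gap its median was 0.475 CPM, near the least amount detected. These r thus do not measure the relation over all samples. The part of adjoining tissue in the keratin values was not tested.

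**Figure D3:**
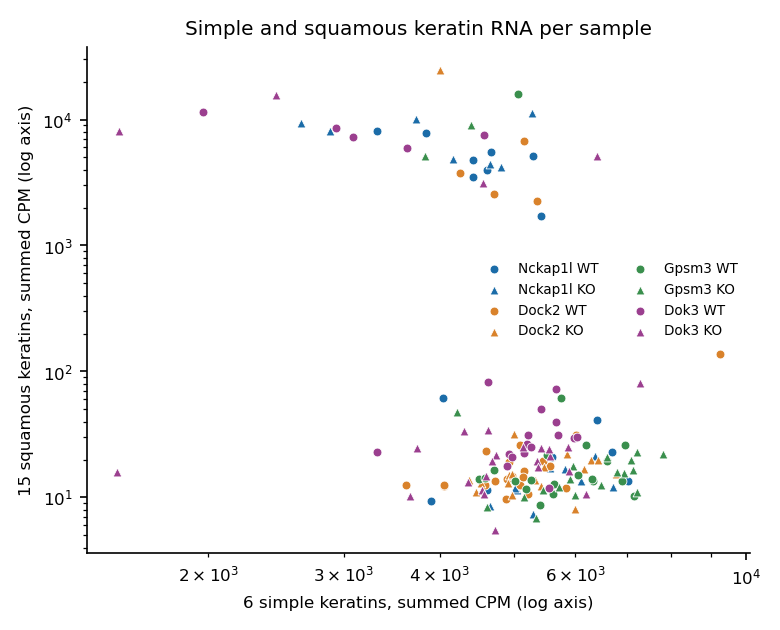
Summed CPM of the 15 squamous keratins against that of the 6 simple keratins in each of the 160 samples (both axes log; colour, line; circles, wild type; triangles, knockout). The squamous sum is at 5.48 to 136 CPM in 128 samples and at 1722 to 24720 CPM in 32, while the simple sum of the same samples overlaps.

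Hair follicle keratins differed in how often they were detected. Of the 24, 19 reached 3 counts in 12 or fewer of the 128 samples with little Krt5, and Krt40 had no count in any of them. In the 32 samples these 19 genes reached 3 counts in 23 to 32 of the samples, Krt40 in 23 and Krt75 in all: Krt71 of the inner root sheath reached 276 CPM, Krt25, its partner, 175 CPM, and Krt33a of the shaft 48.6 CPM. Krt79 and Krt83 lay between, with at least 3 counts in 40 and 76 of the 128 samples. Krt36, Krt84 and Krt87 reached 3 counts in 127, 126 and 128 of them. Krt36 ranged from 0.132 to 143 CPM there and Krt84 from 0.166 to 28.4 CPM, both over wider ranges than Krt87 (0.451 to 4.55 CPM). Krt87 shares 11.0% of its stretches of 100 bases with other transcripts. Krt90, which is not of the follicle, ranged from 0 to 237 CPM in the 128 samples and reached 3 counts in 69 of them.

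Samples fell into separate clusters in Krt5, so correlations of log2 CPM were computed on each side of the gap within each line, over 168 pairs and lines, with p-values from permutation and adjusted over all 168. Among samples with little Krt5 (16, 37, 37 and 38 in the Nckap1l, Dock2, Gpsm3 and Dok3 lines), Krt8 and Krt19 moved most closely together. Their Pearson r was 0.928 to 0.965 and their Spearman rho 0.894 to 0.965 in the 4 lines (adjusted permutation p at most 3.29e-05 and 4.10e-05), and r was 0.903 to 0.931 without the 2 samples farthest in Krt8. Within the 6 runs of the Nckap1l, Gpsm3 and Dok3 lines that had at least 6 such samples r was 0.644 to 0.997, and all ranges within runs below are of these 6, since the Dock2 line is a single run. Krt8 with Krt18, the partner it is known for, had r of 0.600 to 0.813 and rho of 0.507 to 0.665 (adjusted permutation p at most 0.00654 and 0.0268), 0.474 to 0.628 without the 2 farthest samples. Krt8 with Krt20 had r of 0.626 to 0.813 and rho of 0.582 to 0.895 (adjusted permutation p at most 0.0142 and 0.00131), 0.368 to 0.809 without the 2 farthest. Krt8 with Epcam, the epithelial adhesion molecule, had r of 0.741 to 0.907 and rho of 0.634 to 0.712 (adjusted permutation p at most 0.000296 and 0.00570), but r ranged from -0.620 to 0.948 within runs. Krt7 and Krt23 did not follow Krt8 in all lines: r was -0.004 to 0.558 for Krt7 and -0.253 to 0.552 for Krt23, and passed in 2 and 1 of 4 lines. In the clusters above the gap, 15 samples of the Nckap1l line and 9 of the Dok3 line, Krt5 with Krt14 had r of 0.972 and 0.984 (adjusted permutation p at most 0.000151, exact in the Dok3 line). Below the gap the same pair had r of 0.186 to 0.808 and passed in 2 of 4 lines, the Nckap1l and Dok3 lines. Krt5 with Krt8 had r of -0.750 and -0.630 above the gap and passed in 1 of the 2 lines. Below the gap Krt5 with Krt8 had r of -0.325 to 0.04 and passed in 0 of 4 lines. All pairs share a library and its total, and CPM within a library must add up.

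Csf3r, the receptor of granulocyte colony-stimulating factor, marks neutrophils and was set beside Krt7 and Krt20. In samples with little Krt5 it ranged from 0.572 to 260 CPM. Krt7 rose with it in 4 of 4 lines (r 0.405 to 0.879, rho 0.513 to 0.866, adjusted permutation p at most 0.0202 for both), with r of 0.331 to 0.802 within runs and 0.457 to 0.849 without the 2 samples farthest in Csf3r, and Krt20 in 1 of 4 lines (r -0.186 to 0.534). Further pairs were chosen after seeing the data and so have no independent test. Of these, Krt90 had r of 0.881 to 0.947 and rho of 0.760 to 0.903 with Csf3r (adjusted permutation p at most 3.29e-05 and 6.72e-05), with r of 0.856 to 0.923 without the 2 farthest samples and 0.600 to 0.961 within runs. Krt84 had r of 0.779 to 0.922 and rho of 0.783 to 0.891, Krt80 0.727 to 0.855 and 0.674 to 0.862, Krt13 0.587 to 0.882 and 0.702 to 0.924, and Krt36 0.579 to 0.834 and 0.667 to 0.835, each passing in 4 of 4 lines with adjusted permutation p at most 0.00221 for r, and r of these 4 was 0.579 to 0.898 without the 2 farthest samples. Krt14 passed in 4 of 4 lines with r of 0.348 to 0.819 (largest adjusted permutation p = 0.0487) and 0.026 to 0.869 within runs, the lowest in the first Dok3 run. Krt83 went the other way (r -0.719 to -0.271, 3 of 4 lines), as did Krt10 (r -0.653 to -0.194, 2 of 4 lines). Krt83 was at 0 to 1.14 CPM in these samples (median 0.228 CPM), near the least amount detected, so its r is uncertain. Csf3r with Krt8 had no common sign (r -0.481 to 0.481): it passed in the Dock2 line with r of 0.481 and in the Dok3 line with r of -0.481. These were 0.238 and -0.055 without the 2 farthest samples, on which the Dok3 relation rests. Their rho was 0.419 in the Dock2 line (adjusted permutation p = 0.0189) and -0.076 in the Dok3 line (adjusted permutation p = 0.683). Krt13 was close to Krt36 (r 0.873 to 0.901, rho 0.792 to 0.897) and to Krt84 (r 0.800 to 0.888, rho 0.778 to 0.938) in all 4 lines (adjusted permutation p 3.29e-05 for r). The summed level of the 10 neutrophil genes ranged from 22.2 to 2622 CPM in these samples. The treatment of the samples is not known, so any part of DSS in these relations was not tested. Above the gap, Csf3r with Krt90 had r of 0.870 and 0.961, with Krt84 0.812 and 0.912, and with Krt7 0.906 and 0.936, each passing in both lines (adjusted permutation p at most 0.0093, exact in the Dok3 line), whereas Krt36 (r 0.163 and 0.610) and Krt80 (r -0.254 and -0.057) passed in neither and Krt13 and Krt14 in 1 of 2.

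**Figure D4:**
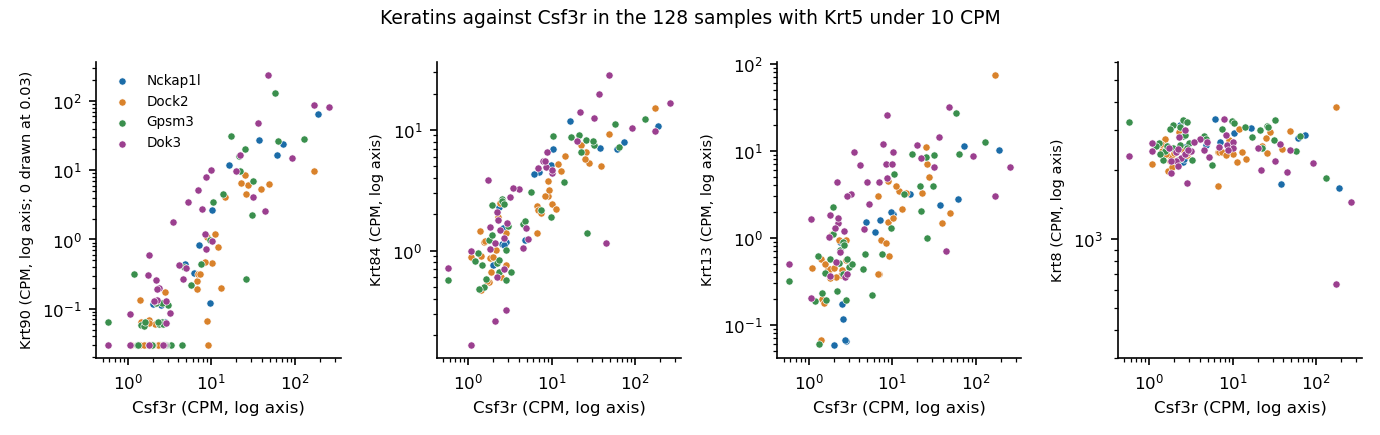
Krt90, Krt84, Krt13 and Krt8 against Csf3r in the 128 samples with Krt5 under 10 CPM (CPM, both axes log; 1 point per sample, colour by line). The first 3 keratins rise with Csf3r in every line, with r of 0.587 or more, and Krt8 has no common sign.

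Knockout and wild type were compared within each line with edgeR's quasi-likelihood test over all genes that passed a filter on low counts, with sex as a covariate where both sexes were present. No keratin passed an adjusted p of 0.05 in any line. In the Nckap1l line 47 of the 53 keratins were tested and 0 called, against 0.00526% of all genes tested, and in the Dock2 line 22 and 0 (background 0.0333%). In the Gpsm3 line 17 were tested and 0 called (background 0.00569%), and in the Dok3 line 22 and 0 (background 0%). In each line 1 keratin had an unadjusted p under 0.05, and so had 4.61%, 5.25%, 4.86% and 2.19% of all genes tested, so that these single keratins are near the background. Limma-voom called 0 in each of the 4 lines, and DESeq2 0 in 3 lines. In the Dock2 line DESeq2 called 5 of 22 (Krt80, Krt13, Krt14, Krt15 and Krt6a, all lower in the knockout), beside 0.522% of all genes in the same fit. The median log2 fold change of the tested keratins was -0.12, -0.24, 0.30 and -0.49 in the order given, beside 0.007, -0.001, 0.003 and 0 over all genes tested. Of the 6 simple keratins the log2 fold changes lay between -0.20 and 0.30 in the Nckap1l, Dock2 and Gpsm3 lines and between -0.585 and 0.08 in the Dok3 line, where Krt23 was lowest (SE 0.45). Krt8 had a mean of 2235 ± 592 CPM in Nckap1l knockout (SD, n = 16) and 2285 ± 541 CPM in wild type (n = 15), and its log2 fold change was -0.16 (SE 0.13), with 0.06 (SE 0.06), 0.05 (SE 0.07) and -0.001 (SE 0.14) in the Dock2, Gpsm3 and Dok3 lines. Krt20 had -0.20 (SE 0.15), 0.18 (SE 0.11), 0.20 (SE 0.14) and 0.08 (SE 0.17). The 95% intervals of Krt8 spanned -0.40 to 0.09, -0.06 to 0.17, -0.10 to 0.19 and -0.28 to 0.27. Krt87 had the smallest unadjusted p of the keratins in the Dock2 line (log2 fold change -0.79, SE 0.29, adjusted p = 0.615) and in the Gpsm3 line (0.81, SE 0.30, adjusted p = 0.936), with opposite signs. Squamous keratins could not be estimated closely: over the squamous genes tested the log2 fold changes ran from -0.52 to 1.48, -1.31 to 0.43, -0.38 to 1.33 and -1.42 to -0.10.

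**Figure D5:**
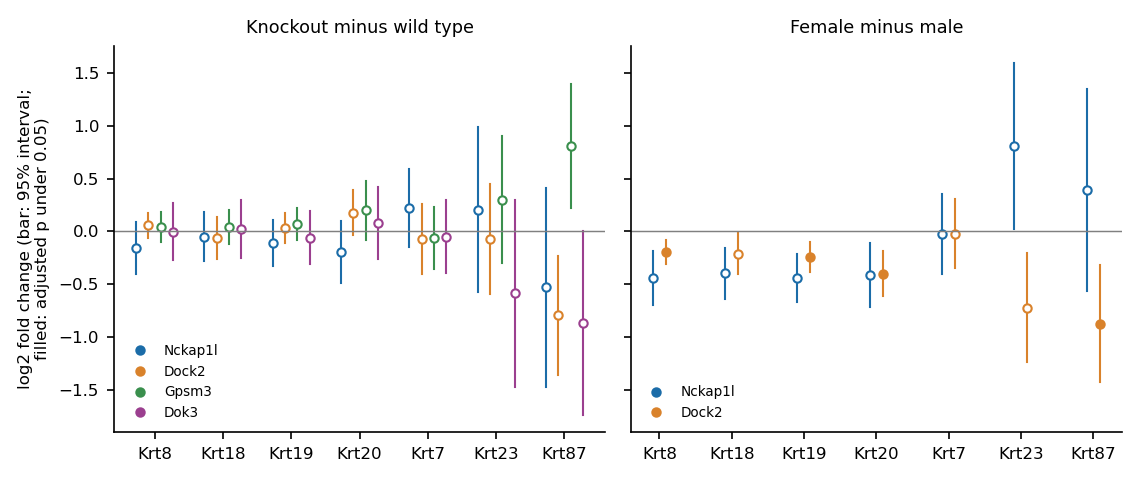
Log2 fold changes of the 6 simple keratins and Krt87, knockout minus wild type in 4 lines (left) and female minus male in the 2 lines with both sexes (right); points are estimates of edgeR's quasi-likelihood fit, bars 95% intervals, filled points an adjusted p under 0.05. Only Krt8, Krt19, Krt20 and Krt87 in Dock2 females are filled, all below 0.

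Krt20 relative to Krt8, a ratio within the sample, was taken as a measure of surface against all lining cells. The mean of log2 Krt20 minus log2 Krt8 was -2.16 ± 0.32 in Nckap1l knockout and -2.13 ± 0.41 in wild type (SD), -2.35 ± 0.27 and -2.48 ± 0.29 in the Dock2 line, -2.10 ± 0.31 and -2.24 ± 0.29 in the Gpsm3 line, and -2.52 ± 0.36 and -2.60 ± 0.36 in the Dok3 line. The differences of -0.03, 0.13, 0.15 and 0.08 did not pass (adjusted p = 0.844, 0.302, 0.302 and 0.593, two-sided permutation test, adjusted over the 4 lines). Within runs the difference was 0.25, -0.32 and -0.21 in the Nckap1l line, 0.19 and 0.10 in the Gpsm3 line and -0.04 and 0.29 in the Dok3 line. The sign thus differed between runs in the Nckap1l and Dok3 lines.

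Partners of keratin filaments formed a list of 17 genes, among them plakins, plakophilins and the integrin Itgb4. The list also held Vim, an intermediate filament gene that does not pair with keratins. Of the 15 tested in each line, 0 differed between knockout and wild type in the Nckap1l, Dock2, Gpsm3 and Dok3 lines. The lists of colonocyte, striated muscle, smooth muscle, neutrophil and squamous genes other than keratins likewise had 0 called in these 4 tests. Over all genes tested 0.00526%, 0.0333%, 0.00569% and 0% were called in the same order. With shares this low, 0 calls in short lists do not set the lists apart from other genes. The median log2 fold change of striated muscle genes was 0.27, -1.59, 1.29 and -1.10 in the 4 lines, and the genes that passed the filter were 13, 10, 9 and 11 of 14.

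Females of the Dock2 line had lower simple keratins than males. Krt20 ranged from 191 to 602 CPM in 20 females (median 382 CPM) and from 403 to 1118 CPM in 22 males (median 490 CPM), a log2 fold change of -0.40 (SE 0.11, adjusted p = 0.0168 in edgeR's quasi-likelihood test). The groups overlapped, but no male was under 403 CPM. Krt19 had medians of 1685 and 1953 CPM (log2 fold change -0.24, SE 0.07, adjusted p = 0.0272), and Krt8 of 2271 and 2491 CPM (-0.20, SE 0.06, adjusted p = 0.0276). Krt87 had medians of 2.19 and 3.04 CPM (-0.87, SE 0.28, adjusted p = 0.0410), and Krt90 of 0.0641 and 0.317 CPM (-2.32, SE 0.71, adjusted p = 0.0307), near the least amount detected. These 5 of 22 keratins tested were all lower in females, and 9.79% of all genes tested passed. The 10 squamous keratins tested went the other way. Their log2 fold changes were all above 0, from 0.03 to 4.59 with a median of 1.97. Of them 0 passed (smallest adjusted p = 0.0608 in edgeR's quasi-likelihood test). Krt18 with -0.21 (SE 0.10), Krt23 with -0.72 (SE 0.26) and Krt7 with -0.02 (SE 0.17) did not pass. Without the 5 libraries of this line with Krt5 at 10 CPM or more, chosen after seeing the data, 12 of 20 keratins passed (17.9% of all genes in the same fit), 10 lower and 2 (Krt17 and Krt222) higher in females. Among filament partners 2 of 15 were called, both lower in females: Itgb4, the hemidesmosomal integrin (-0.27, SE 0.07, adjusted p = 0.0146), and Fam83h (-0.16, SE 0.05, adjusted p = 0.0333). Of 15 colonocyte genes 0 were called, with a median log2 fold change of -0.05, and of 8 neutrophil genes tested 1, Fpr2, a receptor of neutrophils, was called (-1.85, SE 0.56, adjusted p = 0.0314). The 8 neutrophil genes had a median of -1.28 and the 10 striated muscle genes tested one of -2.89, with 0 of the latter called. Their part in the difference between the sexes was not tested.

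In the Nckap1l line, 0 of 47 keratins passed between the sexes, against 0.237% of all genes tested. The estimates of Krt19 (-0.44, SE 0.12, adjusted p = 0.0871), Krt8 (-0.44, SE 0.13, adjusted p = 0.128), Krt18 (-0.40, SE 0.12, adjusted p = 0.134) and Krt20 (-0.41, SE 0.16, adjusted p = 0.194) were below 0, and 4 of the 47 keratins had an unadjusted p under 0.05, beside 16.7% of all genes tested. Run was not a covariate in this test. Of the 12 females, 9 were in the first run, where 13 of 14 samples were above the Krt5 gap, and the second run held males only. Sex and run can thus not be told apart in this line, and its estimates are no repeat of those of the Dock2 line. The 14 squamous keratins tested in the Nckap1l line had log2 fold changes from -0.82 to 1.84, with a median of 1.55. Whether the difference between the sexes differed between lines was not tested. Between runs of sample numbers, 1 of 19 keratins passed in the Gpsm3 line, Krt87, higher in the second run (log2 fold change 0.89, SE 0.28, adjusted p = 0.0370), beside 7.88% of all genes tested. Krt87 ranged from 1.03 to 3.09 CPM in the first run and from 1.51 to 28.0 CPM in the second, and the call was lost without the libraries with Krt5 at 10 CPM or more. In the same test 3 of 15 colonocyte genes were lower, Lgals4, Ceacam1 and Slc26a3. Of 15 genes on the filament partner list 1 was higher, Vim, which is not itself a partner of keratins. In the Dok3 line 0 of 26 keratins passed between runs, against 0.143% of all genes, and 0 had an unadjusted p under 0.05.

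Wild-type males, present in every line, were compared over the 4 lines (7 of the Nckap1l, 12 of the Dock2, 20 of the Gpsm3 and 21 of the Dok3 line) with an F test in edgeR. Of 46 keratins tested 23 passed, against 18.5% of all genes, and 20 of the 23 were of the hair follicle. Strain, day, dose and set of mice change with the line and cannot be told apart. Most of the 20 are genes that were near 0 outside the 32 samples with much Krt5. Limma-voom called 3 of the 46 keratins, Krt20, Krt12 and Krt36, beside 16.8% of all genes in the same fit. Krt20 had medians of 554 CPM in the Nckap1l, 463 CPM in the Dock2, 542 CPM in the Gpsm3 and 397 CPM in the Dok3 line (adjusted p = 0.00242 by the F test). Krt12, known as the keratin of the cornea, was low in all, with medians of 0.445, 0.264, 0.166 and 0.967 CPM (adjusted p = 1.95e-07), and overlaps the antisense gene A830036E02Rik. Without the libraries with Krt5 at 10 CPM or more, 9 of 24 keratins passed, Krt20 and Krt12 among them, beside 14.4% of all genes in the same fit.

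Whether the knockout effect differed among lines was tested over all 160 samples. Of 49 keratins 9 passed, against 0.718% of all genes, and all 9 were hair follicle keratins. Only 1 of the 9 was tested once the libraries with Krt5 at 10 CPM or more were left out, and it did not pass (adjusted p = 0.728).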

How the data were processed

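The authors used STAR for mapping (mm10) and featureCounts of Subread for counting, their versions not given in the sources used here. The deposited files hold raw counts, 1 file per sample. Libraries were stranded, depleted of ribosomal RNA and read as single ends of 100 bases. The keratins and gene lists were chosen with earlier results of these data known. Symbols and positions came from GENCODE M21, which matched 37607 of 39179 genes (96.0%) and 99.67% of counts.

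Labels gave each sample its line and genotype. After TMM scaling and the filterByExpr filter, the quasi-likelihood F test of edgeR (4.0.16; R 4.3.3) was used, two-sided, with Benjamini-Hochberg adjustment over all genes tested and a threshold of 0.05. P-values measure the spread between mice. CPM were scaled by TMM over all 160 libraries, and log2 CPM had a prior count of 2. Correlations and ratios were tested by 100000 permutations, or exactly under 10 samples, with Python 3.11.15 and scipy 1.17.1. The smallest p that 100000 permutations can give is 1e-05. Tested on simulated counts, the fits recovered the changed genes. Both F tests over the 4 lines made more false calls than the threshold allows, nearly all among genes of very uneven counts. False calls among keratins were not counted apart. Of 1569 pairs of samples in a group none agreed within sampling noise (smallest chi-square per gene 4.01).

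Alternatives were DESeq2 1.42.0, limma-voom of limma 3.58.1, no filter, 2 surrogate variables (sva 3.50.0), run as a covariate, no sex covariate, males only, and leaving out libraries. Leaving out libraries with Krt5 at 10 CPM or more was chosen after seeing the data. Named genes followed a rule: all simple keratins, 9 squamous keratins, each keratin that passed a test, the next most abundant, and up to 4 called genes of each other list. Aif1 knockout samples were not analysed here.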

Additional observations from a re-analysis of the deposited data

Results flagged for a closer look

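The F test in edgeR of the interaction of knockout with line passed for 9 hair follicle keratins: Krt86 (adjusted p = 0.00305), Krt34 (0.00307), Krt81 (0.00391), Krt33b (0.00985), Krt33a (0.00987), Krt31 (0.0137), Krt83 (0.0276), Krt25 (0.0371) and Krt71 (0.0429). On simulated counts this F test made more false calls than the threshold allows. DESeq2 called 1 of these 9, limma-voom 0 (smallest adjusted p = 1.00), and the fit without the highest-Krt5 library of each group 8. Without the libraries with Krt5 at 10 CPM or more, 1 was tested and 0 called. In the 128 samples below that level, Krt31, Krt33a, Krt33b and Krt81 reached 3 counts in 0 samples. Krt34 did so in 1, Krt25 and Krt86 in 2, Krt71 in 3 and Krt83 in 76. The calls thus rest mostly on the few libraries with much Krt5 and say little about the knockouts. Krt81 and Krt86 share 29.0% and 24.6% of their stretches of 100 bases with other transcripts. No group had 4 to 10 samples, so no group was searched for an outlying sample.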

How the results depend on the processing

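No paired analysis was possible because the columns carry no replicate number that knockout and wild type share: each label gives a sample number of its own, with no litter or day. Of values with a test or a count that answer a comparison, 61 kept their call or count, 23 moved and 1 changed sign. Percentages in brackets below are the share of all genes tested that passed in the same fit. Counts of keratins called against wild type rose from 0 to 1 of 47 with 2 surrogate variables in the Nckap1l line (Krt77, 0.516%). In the Dock2 line they rose to 5 of 22 with DESeq2 (0.522%) and 1 of 21 without the library of the highest Krt5 in each group (0.105%). In the Gpsm3 line they rose to 5 of 53 with no filter (0.102%) and 1 of 17 without those libraries (0.12%). Between the sexes DESeq2 called 1 of 47 keratins of the Nckap1l line, Krt19 (1.09%), and 13 of 22 of the Dock2 line (12.1%). In the Dock2 line no filter gave 3 of 53 (4.69%). Leaving out its libraries with Krt5 at 10 CPM or more gave 12 of 20 (17.9%). Krt19 and Krt20 passed under each of the 5 alternatives in the Dock2 line. Between runs of the Gpsm3 line DESeq2 (10.4%), limma-voom (8.31%) and the fit without libraries of Krt5 at 10 CPM or more (7.38%) called 0 of 19. No filter called 9 of 53 there (4.21%) and the fit without the highest-Krt5 libraries 3 of 19 (9.33%). DESeq2 called 5 of 26 in the Dok3 line (0.616%). Among lines, wild-type males had 3 of 46 with limma-voom (16.8%) and 38 of 46 without the highest-Krt5 libraries (22.5%). They had 9 of 24 without those at 10 CPM or more (14.4%). The knockout effect had 1 of 49 with DESeq2 (0.559%) and 0 of 49 with limma-voom (0.00499%). It had 21 of 48 without the highest-Krt5 libraries (2.51%) and 0 of 26 without those at 10 CPM or more (2.05%). At a minimum of 1 CPM, 66 samples held Krt5. The cause of these shifts was not tested.

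Signs near 0 turned. Krt20 relative to Krt8 in the Nckap1l knockout was 0.003 without the highest-Krt5 libraries, and -0.281 without those at 10 CPM or more (unadjusted p = 0.0651 by exact permutation, adjusted 0.130; -0.279 and -0.103 within runs 2 and 3), against -0.026 with all. Log2 fold changes of the Dok3 knockout became 0.003 (no filter), 0.004 (without the 5 libraries whose sex genes differ) and 0.005 (run as a covariate) for Krt8, -0.003 (surrogate variables) and -0.009 (without Krt5 at 10 CPM or more) for Krt20, and 0.045 and 0.117 for Krt87 under the same settings. Without Krt5 at 10 CPM or more, the Nckap1l knockout gave 0.023 for Krt8 and 0.042 for Krt87, and limma-voom gave 0.012 for Krt8 between Dok3 runs. With genotype means removed, r became 0.03 for Krt8 with Krt7 and -0.138 for Csf3r with Krt10 (above the gap) in the Nckap1l line, -0.028 for Csf3r with Krt8 in the Gpsm3 line, and 0.122 for Csf3r with Krt10 (above the gap) in the Dok3 line. With CPM by total counts, Krt5 with Krt8 had r of -0.011 in the Dock2 line. Among the other values, 592 kept their call, 65 lost it, 8 gained it and 15 changed sign. In the 128 samples with little Krt5, 21 of the 24 hair keratins reached 3 counts in 76 or fewer libraries.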

Other observations

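In wild-type replicate 13 of the Dock2 line, a male, 3 simple keratins reached their highest level of the series, Krt8 with 3809 CPM, Krt19 with 3488 CPM and Krt18 with 806 CPM, and so did Krt36 with 143 CPM. Krt13 was at 74.7 CPM and Krt6a at 20.4 CPM, the highest of the 128 samples with Krt5 under 10 CPM, with Krt5 itself at 0.753 CPM and the summed neutrophil genes at 1006 CPM. In knockout replicate 17 of the Dok3 line the summed simple keratins were lowest of the series, 1523 CPM, with Krt8 at 638 CPM, Krt90 at 88.6 CPM and the summed neutrophil genes at 2622 CPM, their highest. Krt90 was highest in wild-type replicate 17 of the Dok3 line (237 CPM) and wild-type replicate 14 of the Gpsm3 line (132 CPM), with Csf3r at 48.0 and 57.2 CPM. These samples were picked for their values and have no test.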
